A study of Mus musculus with 6 samples.

Results

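Laminins and the proteins that tie them into basement membranes were followed through the cell types of the mouse proximal pulmonary artery (PA). The set holds 10 genes of the 53647 counted in each library, and its members were taken by symbol. They are the laminin α chains Lama2, Lama3, Lama4 and Lama5, the β chains Lamb1 and Lamb2, the γ chain Lamc1, the nidogens Nid1 and Nid2, and Hspg2, which encodes perlecan. All 10 were found in the files under these symbols.

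A laminin is a trimer of 1 α, 1 β and 1 γ chain that assembles in the cell before secretion and then polymerises into a sheet at the cell surface. Integrins, dystroglycan and Bcam bind the α chain, so the α chain decides which receptors a laminin can engage. Nidogens bridge the laminin sheet to the collagen IV network, and the heparan sulfate proteoglycan perlecan binds both and holds growth factors. In an artery, ECs lie on a basement membrane and each SMC is wrapped in one, whereas adventitial FBs mostly border interstitial matrix.

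Cells of the proximal PAs of 6 C57BL/6J WT mice had been profiled by droplet RNA sequencing, 1 mouse per library, with no treatment. The young group had 2 libraries of 3 months (young 1 and young 2), and the old group had 4, of 20, 24, 28 and 27 months (old 1 to old 4). Another young library, which the study describes, is not used here. The arteries were cut out with surrounding tissue and digested with collagenase and elastase, so airway epithelial, mesothelial and blood cells came with them. By the study's methods some old mice came from an aging colony and young mice did not, and source and age cannot be told apart here.

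Counts are of unique molecular identifiers (UMIs, 1 tag for each captured transcript), and libraries held 6355125 to 50436562 of them. A barcode counted as a cell if it held 500 or more UMIs from 300 or more genes, of which mitochondrial transcripts made no more than 20%, which left 935 to 4067 per library, with a median of 801.5 to 8150 UMIs per cell. Young cells were shallow and few. Young 1 and young 2 gave 90 and 29 FBs, 25 and 35 SMCs, and 85 and 62 ECs, against 126 to 805 FBs and 204 to 802 ECs in the old libraries. With 5 SMCs, old 2 fell short of the 10 cells that a library needed and does not enter SMC values. Young 1, young 2 and old 2 shared 131 to 215 cell barcodes pairwise, and other pairs at most 4. Among the named types most were in airway epithelial cells (202 in old 2, 137 in young 1 and 219 in young 2), while FBs, SMCs and ECs held at most 2 per library. The study's text lists the mouse of 20 months as a male. Its library held 2367 UMIs of Xist, expressed in females, and 2 of Eif2s3y, a gene of the Y chromosome. Old 2 and young 1 held both transcripts, at 161 and 187 UMIs and at 145 and 90 UMIs. Old 3 held 18896 and 0, young 2 held 904 and 8, and old 4 held 46 and 1846. The labels mark old 3 and young 2 with f and old 4 with m, and give no sex for the others. Why both transcripts were counted in old 2 and young 1 was not tested, and sex was not used.

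Cell types were named from fixed markers, and neither the 10 genes nor the 38 partner genes named later took part in clustering or naming. FB clusters were led by genes such as Dpt, Clec3b and Gsn, SMC clusters by Myh11, Acta2 and Tagln, and most EC clusters by genes such as Vwf, Cdh5 and Ptprb, which are markers of these types. EC cluster 21 was led by Gpihbp1, Adgrl4 and Tcf15, with Cdh5 but not Vwf or Ptprb among its leading genes. It held 178 and 29 cells of old 3 and old 4, 1 and 2 of old 1 and old 2, and 2 of each young library. Its part in the EC values by age was not tested. Young cells of a type lay mostly in 1 cluster, which held differing shares of the old cells. In FBs, 83 of 90 and 29 of 29 young cells were in cluster 11, led by Tnfaip6, Dpt and Ptx3, which held 120 of 126 and 199 of 214 cells of old 1 and old 2 but 56 of 805 and 34 of 509 of old 3 and old 4, whose FBs lay mostly in clusters 4 and 9. In ECs, 81 of 85 and 57 of 62 young cells were in cluster 14, beside 181 of 204 cells of old 2, while ECs of old 1 lay mostly in cluster 5 and those of old 3 and old 4 in cluster 6. In SMCs, 22 of 25 and 34 of 35 young cells were in cluster 19, of low UMI counts, against 3 of 155, 91 of 962 and 148 of 2403 cells of old 1, old 3 and old 4, whose SMCs lay mostly in clusters 26, 1 and 0.

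By RefSeq on GRCm38.p6, the build that the labels name, Lama2 lies at chr10:26981285-27617191 and Lama4 on the same chromosome at chr10:38965515-39110188. Lama5 lies at chr2:180176373-180225904, Lamb1 at chr12:31265146-31329644, Lamb2 at chr9:108479847-108490530 and Lamc1 at chr1:153218922-153332786. Nid1 lies at chr13:13437602-13512275, Nid2 at chr14:19751257-19811787 and Hspg2 at chr4:137468751-137570630.

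The RefSeq promoter table of that build holds 6 of the 10 genes, as windows from 250 bases before to 50 after an annotated start. Shown are the windows of Lama2 and Nid1, which were highest in FBs, and of Lama5 and Hspg2, whose mean levels were highest in ECs. For Lama5, EC libraries overlapped with those of SMCs and airway epithelial cells. Each window is given 5′ to 3′ on the gene's strand. Capitals mark GGGCGG or its reverse complement CCGCCC, the GC box bound by Sp family factors. The windows are Lama2 at chr10:27616893-27617192 on the minus strand, Nid1 at chr13:13437352-13437651 on the plus strand, Lama5 at chr2:180225810-180226109 on the minus strand and Hspg2 at chr4:137468553-137468852 on the plus strand.
Lama2: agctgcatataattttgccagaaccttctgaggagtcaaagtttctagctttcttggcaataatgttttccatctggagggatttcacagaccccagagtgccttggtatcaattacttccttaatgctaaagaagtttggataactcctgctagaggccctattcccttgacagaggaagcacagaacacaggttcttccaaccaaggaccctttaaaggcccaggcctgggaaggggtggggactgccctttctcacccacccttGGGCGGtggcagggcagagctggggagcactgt
Nid1: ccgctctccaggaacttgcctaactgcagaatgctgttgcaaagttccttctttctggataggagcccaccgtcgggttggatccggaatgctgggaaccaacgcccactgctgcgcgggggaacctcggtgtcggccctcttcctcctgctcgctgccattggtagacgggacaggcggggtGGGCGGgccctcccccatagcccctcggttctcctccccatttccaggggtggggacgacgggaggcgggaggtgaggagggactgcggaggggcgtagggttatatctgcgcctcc
Lama5: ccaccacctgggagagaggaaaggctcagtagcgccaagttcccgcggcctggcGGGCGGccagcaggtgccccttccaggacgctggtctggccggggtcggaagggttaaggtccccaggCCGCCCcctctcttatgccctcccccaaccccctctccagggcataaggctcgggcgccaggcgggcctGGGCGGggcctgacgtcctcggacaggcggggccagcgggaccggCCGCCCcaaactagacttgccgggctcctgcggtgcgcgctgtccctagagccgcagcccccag
Hspg2: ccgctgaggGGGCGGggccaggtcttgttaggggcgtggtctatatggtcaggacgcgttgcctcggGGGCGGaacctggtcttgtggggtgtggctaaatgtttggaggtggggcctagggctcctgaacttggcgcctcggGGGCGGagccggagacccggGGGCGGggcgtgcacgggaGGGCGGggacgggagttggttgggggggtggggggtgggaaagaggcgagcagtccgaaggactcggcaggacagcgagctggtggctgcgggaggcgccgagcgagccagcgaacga
The Lama2 window lies almost wholly inside the annotated gene, whose 5′ end on the minus strand is at 27617191. It thus belongs to a start within the gene, and the outermost start was not examined. This window held 1 CG dinucleotide, a number as low as in 14.1% of the 32851 windows of the table. Its GC content of 50.3% was close to the median of all windows, 52.7%. Lama5, Hspg2 and Nid1 held 24, 27 and 20 CG dinucleotides, against a median of 7 over all windows, with GC contents of 72.7%, 70.3% and 64.7%. The GC box, which itself contains a CG, matched 4 times in the Lama5 window, 5 times in that of Hspg2 and once in those of Lama2 and Nid1, and 35.7% of all windows held at least 1 match. Of the other windows, Lamb1 had 18 CG dinucleotides, a GC content of 63.7% and 2 matches, and Lamb2 had 4 CG dinucleotides, a GC content of 44.0% and 0 matches. None of the 6 held TATAAA on either strand, which 13.6% of all windows did.

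For each type, the counts of a library were added up, and levels are given as CPM, the count of a gene scaled to a common total of that sum. Lama2, the α chain of laminins in muscle and nerve, was highest in FBs, lower in SMCs and almost absent from ECs. Its level in FBs was 480 and 430 CPM in the young libraries and 256, 557, 852 and 709 CPM in old 1 to old 4. In SMCs it was 89.1 and 166 CPM in the young and 29.1, 212 and 255 CPM in old 1, old 3 and old 4. In ECs it was 0 in both young libraries and in old 2, and 6.1, 3.6 and 4.6 CPM in old 1, old 3 and old 4. No FB library overlapped with any EC library, and old 1 was the lowest in both FBs and SMCs. A count of 0 in the 102816 UMIs of young ECs allows up to 29.2 CPM, so a low level there was not detectable at this depth. Free RNA, taken from barcodes under 100 UMIs, held Lama2 at 49.1 to 233 CPM, above its level in ECs of every library. In SMCs Lama2 was below free RNA in young 1 (89.1 against 233 CPM) and old 1 (29.1 against 86.6 CPM). It was above free RNA in SMCs of young 2 (166 against 121 CPM, on 4 UMIs), old 3 (212 against 90.5 CPM) and old 4 (255 against 49.1 CPM).

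Lama4, the α chain of vascular laminins, was the broadest of the α chains. Its mean was 809 CPM ± 154 (SD, n = 2) in lymphatic ECs, 330 CPM ± 103 (SD, n = 6) in FBs, 216 CPM ± 167 (SD, n = 5) in SMCs, 179 CPM ± 67.4 (SD, n = 5) in mesothelial cells and 160 CPM ± 68.6 (SD, n = 6) in ECs. The last 4 types overlapped, while lymphatic ECs, at 700 and 918 CPM in old 3 and old 4, stood above every library of the other types. In blood vascular ECs of those libraries Lama4 was at 230 and 158 CPM. Only these 2 libraries held 10 lymphatic ECs, 65 and 25 cells, so the difference was not tested.

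Lama5, the other α chain of endothelial and epithelial basement membranes, was found in ECs and airway epithelial cells and, together with Lama2, in SMCs. Its mean level was 103 CPM ± 52.3 (SD, n = 6) in ECs, 88.3 CPM ± 27.9 (SD, n = 5) in SMCs and 62.4 CPM ± 17.6 (SD, n = 6) in airway epithelial cells, ranges that overlapped. In FBs it was at 0 in young 2, old 1 and old 2, and at 12.6, 2.1 and 4.6 CPM in young 1, old 3 and old 4. The value of young 1 rests on 1 UMI.

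Lama3, the α chain of epithelial anchoring laminins, was low in every cell type. Its highest mean was 22.8 CPM ± 10.1 (SD, n = 6) in ECs, with 33.9 and 22.8 CPM in the young libraries and 5.4, 20.8, 21.9 and 31.9 CPM in old 1 to old 4. Free RNA held Lama3 at 81.3 and 39.8 CPM in the young libraries and at 14.0, 21.9, 1.7 and 0.8 CPM in old 1 to old 4. The EC level was thus above that of free RNA in old 3 and old 4 alone.

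The β chains divided the cell types. Lamb1 was at 170 CPM ± 28.2 (SD, n = 6) in FBs and 217 CPM ± 6.87 (SD, n = 2) in lymphatic ECs, but at 9.4 CPM ± 18.1 (SD, n = 5) in SMCs and 6.8 CPM ± 7.07 (SD, n = 6) in ECs. Every FB library, at 140 to 215 CPM, was above every SMC and EC library. Lamb2, the β chain of mature vessel and muscle laminins, was present in all 3, at 457 CPM ± 176 (SD, n = 5) in SMCs, 244 CPM ± 78.9 (SD, n = 6) in FBs and 197 CPM ± 79.1 (SD, n = 6) in ECs. The γ chain Lamc1, shared by most laminins, was at 436 CPM ± 68.2 (SD, n = 6) in FBs, with every FB library, at 356 to 526 CPM, above every SMC and EC library.

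Every FB library was above every library of the other named cell types in Nid1. Its FB level was 1527 and 1386 CPM in the young and 745, 888, 1019 and 814 CPM in old 1 to old 4. Lymphatic ECs followed with 240 and 304 CPM in old 3 and old 4, then ECs with a mean of 126 CPM ± 58.9 (SD, n = 6), and SMCs had 12.9 CPM ± 18.4 (SD, n = 5), with 0 in young 2 and old 1. B cells, counted as a type that should lack these genes, held Nid1 at 64.4 CPM ± 17.1 (SD, n = 5), from 45.3 to 84.7 CPM, above every MΦ library (0 to 12.7 CPM) and every T or NK library (0 to 24.2 CPM). Nid2, the second nidogen, was highest in mesothelial cells, at 84.1 to 127 CPM in the 5 libraries with 10 such cells, above all libraries of the other types, with 0 to 40.4 CPM in FBs and at most 50.7 CPM in lymphatic ECs.

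Hspg2 was highest in ECs. Its EC level was 763 and 730 CPM in the young libraries and 321, 298, 503 and 444 CPM in old 1 to old 4, with a mean of 510 CPM ± 199 (SD, n = 6). SMCs were narrow, at 281 to 333 CPM in 5 libraries, and FBs were below all SMC libraries, at 127 to 240 CPM in 6.

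**Figure D1:**
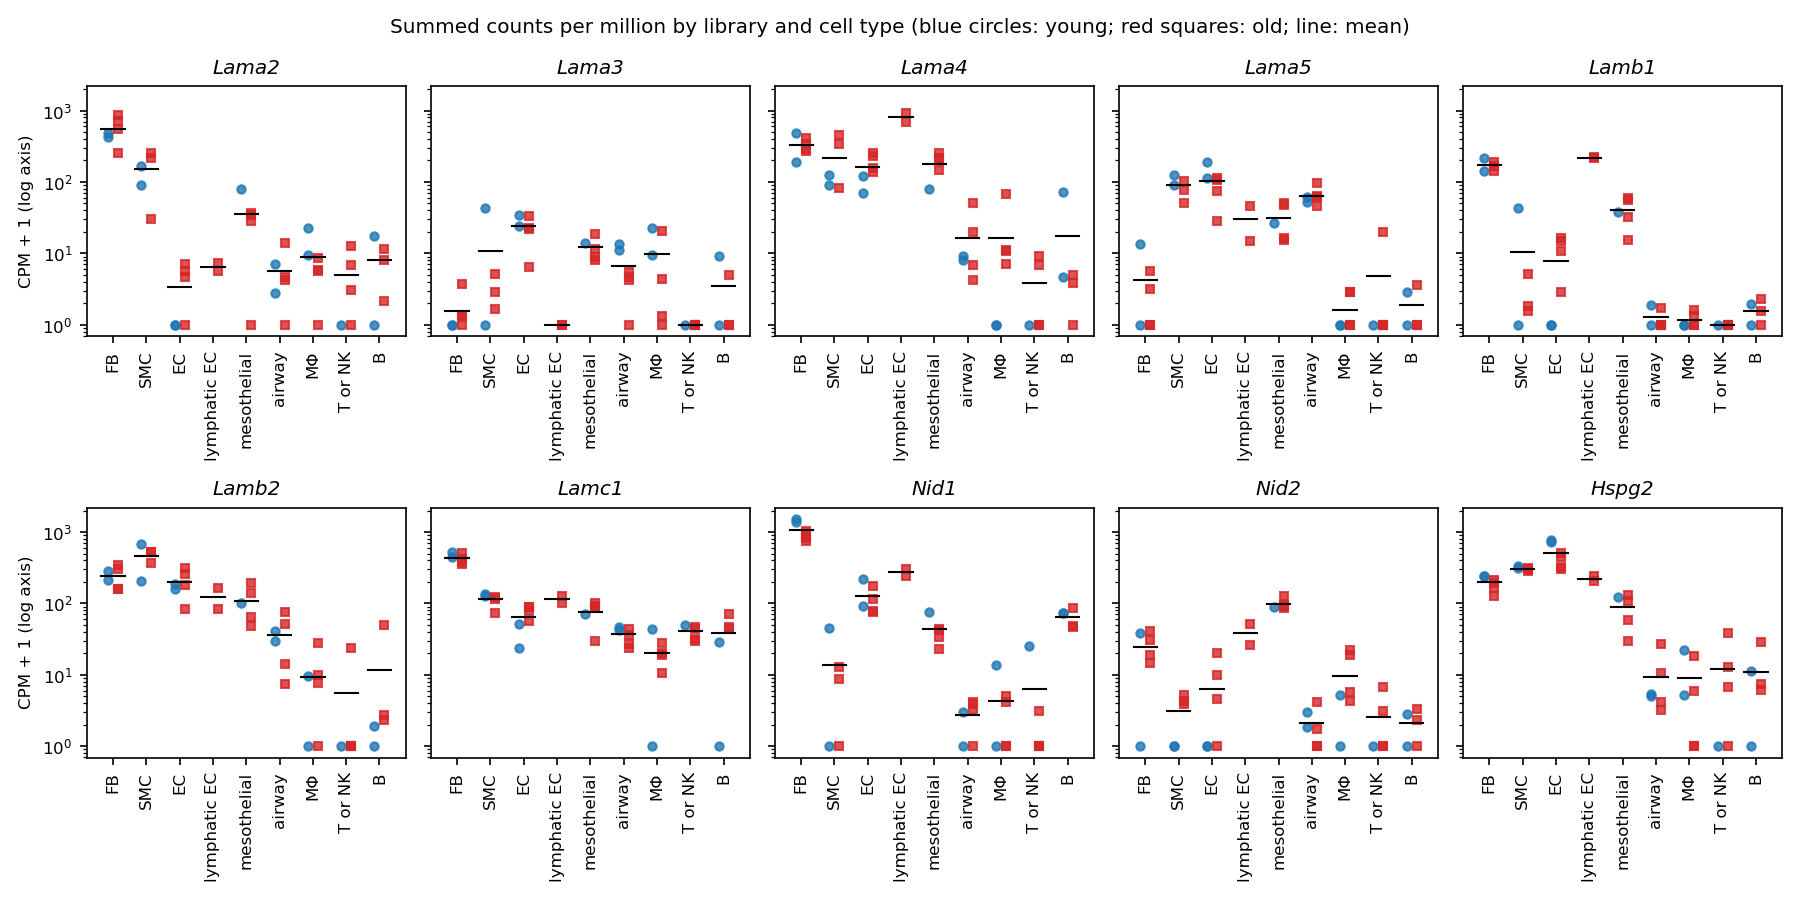
Levels of the 10 genes by cell type, as CPM + 1 on a log axis, with 1 point per library of at least 10 cells (blue circles young, red squares old) and a line at the mean. Lama2, Lamb1 and Nid1 sit high in FBs and low in ECs, Lama5 shows the opposite, and Nid2 peaks in mesothelial cells at 84.1 to 127 CPM.

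The share of cells with at least 1 UMI gave the same order of FBs, SMCs and ECs for Lama2 and Hspg2 when every cell was thinned to 500 UMIs. Lama2 was then counted in 23.0% ± 8.13 (SD, n = 6) of FBs, 7.36% ± 3.72 (SD, n = 5) of SMCs and 0.0457% ± 0.0712 (SD, n = 6) of ECs, with 0.233% of B cells as background. Without thinning the means were 53.0%, 32.7% and 0.604%, with 1.23% in B cells. Hspg2 was counted in 23.3% of thinned ECs, 15.1% of SMCs, 9.48% of FBs and 0.187% of B cells. Lamb1 in SMCs (0.158%) and ECs (0.359%) was counted in few cells, as in B cells (0.125%). Nid1 reached 4.64% of B cells, as against 0% of T or NK cells and 0.168% of MΦs, so B cells are no background for that gene.

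Differences between cell types were tested on the sums with the library as a block (edgeR's quasi-likelihood test, adjusted over all genes tested). Between ECs and FBs, in 6 libraries, 7 of the 8 members tested passed an adjusted p of 0.05, while 40.3% of all genes did. Higher in ECs were Lama5, by 5.15 ± 0.311 on the log2 scale (SE, adjusted p = 1.8e-12), and Hspg2, by 1.28 ± 0.170. Lower in ECs were Lama2 (-7.00 ± 0.337), Lamb1 (-4.19 ± 0.311), Nid1 (-3.11 ± 0.180), Lamc1 (-2.53 ± 0.200) and Lama4 (-0.96 ± 0.195). Lamb2 did not pass (-0.22 ± 0.185, adjusted p = 0.367). A gene entered a test if over 5% of cells of either type counted it in at least 3 libraries. Lama5, in at most 2.36% of FBs, entered only through ECs. Lama2 and Lamb1, in at most 1.49% and 3.49% of ECs, entered only through FBs. The calls of these members thus rest on entry through the type where they were higher. The median over the 8 was -1.75 on the log2 scale, against 0.07 over all 7503 genes. Of all genes, 21.7% passed as higher and 18.6% as lower.

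SMCs differed from FBs in a similar set of members, but in Lama2 by less. In 5 libraries, 7 of 8 members passed, while 43.6% of all 8018 genes did, 24% as higher and 19.6% as lower. Lower in SMCs were Lamb1 (-7.62 ± 0.340), Nid1 (-6.61 ± 0.356), Lama2 (-1.96 ± 0.280) and Lamc1 (-1.90 ± 0.270). Higher in SMCs were Lama5 (4.94 ± 0.302), Lamb2 (0.91 ± 0.263) and Hspg2 (0.75 ± 0.260, adjusted p = 0.0118). The calls of Lamb2 and Hspg2 were lost when members and partners took part in clustering (adjusted p of 0.152 and 0.242) and without the library block (0.173 and 0.289). The Hspg2 call was also lost without young 2 (adjusted p = 0.0629), without old 4 (0.0691) and with the gene filter of edgeR (0.0685). Lama4 did not pass (-0.55 ± 0.297, adjusted p = 0.13). Lama5 passed the filter of 5% of cells only through SMCs. Lamb1, in at most 2.86% of SMCs, and Nid1, above 5% of SMCs in old 4 alone (8.49%), passed it only through FBs. Their calls have this limit. The member median was -1.23, against 0.07 over all genes.

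Between ECs and SMCs, 4 of 7 members passed in 5 libraries, and 42.8% of all 7710 genes did, 21.7% as higher and 21.1% as lower. ECs were lower in Lama2 (-5.07 ± 0.529) and Lamb2 (-1.05 ± 0.227) and higher in Nid1 (3.31 ± 0.328) and Hspg2 (0.63 ± 0.231, adjusted p = 0.0298). The Hspg2 call was lost in 11 of 19 alternatives, with adjusted p of up to 0.173, among them leaving out young 1, young 2 or old 3, and the Lamb2 call when clustering used the members (adjusted p = 0.0702). Lamc1 (-0.59 ± 0.241, adjusted p = 0.0507), Lama5 (0.31 ± 0.235) and Lama4 (-0.55 ± 0.291) did not pass. Of the members called, Lama2 passed the filter of 5% of cells only through SMCs and Nid1 only through ECs. The member median was -0.55, against 0.01 over all genes. The young SMCs bring few counts to these values, at most 15 UMIs of any member in a library. The old libraries alone gave 7 calls in each comparison with FBs and 4 between ECs and SMCs, where Lamc1 passed (adjusted p = 0.0477) and Hspg2 did not (adjusted p = 0.132).

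**Figure D2:**
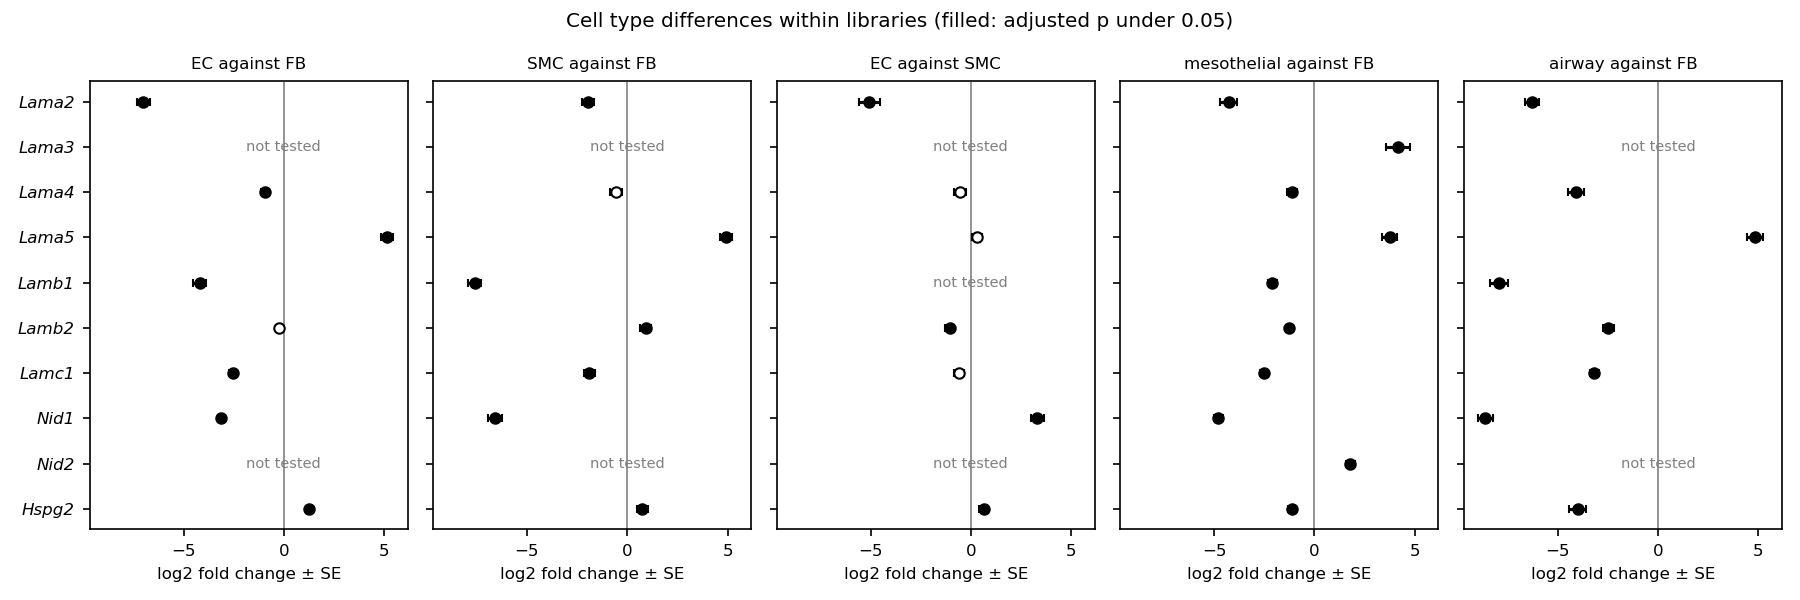
Log2 fold change of each member between cell types, with its SE as a bar, filled where the adjusted p was under 0.05. Lama5 lies right of 0 and Lama2, Lamb1, Lamc1 and Nid1 left of 0 in all 4 comparisons with FBs, while Lama3 and Nid2 passed the filter on low counts in the mesothelial comparison alone.

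Mesothelial cells, which lie on their own basement membrane at the outer surface, differed from FBs in all 10 members (5 libraries), while 31.3% of the 9171 genes passed, 15.8% as higher and 15.5% as lower. Lama3 (4.19 ± 0.601), Lama5 (3.75 ± 0.387) and Nid2 (1.79 ± 0.220) were higher and the other 7 lower, from -1.12 ± 0.229 for Lama4 to -4.79 ± 0.216 for Nid1. Lama3, Lama5 and Nid2 passed the filter of 5% of cells only through mesothelial cells, Lama3 in old 1, old 3 and old 4 (5.26%, 5.15% and 9.41%). Mesothelial Lama3 was above free RNA in old 3 (7.9 against 1.7 CPM) and old 4 (17.4 against 0.8 CPM) alone, so its call has this limit. Airway epithelial cells differed in 8 of 8 members in 6 libraries, while 45% of 9405 genes passed, 25.8% as higher and 19.2% as lower. Lama5 was higher, by 4.84 ± 0.390, and the other 7 were lower, from -2.47 ± 0.254 for Lamb2 to -8.61 ± 0.356 for Nid1. Lama5 passed the filter only through airway epithelial cells, and Lama2, Lama4, Lamb1, Nid1 and Hspg2 only through FBs, so these calls have the same limit.

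The partner genes are 4 other laminin chains, 6 collagen IV chains, 16 other basement membrane components and 12 laminin receptors. Between ECs and FBs, 27 of the 38 were tested and 10 were higher in ECs and 9 lower. Furthest apart were Tinagl1 (7.32 ± 0.364), a matrix protein of vessels, and Itgb4 (5.73 ± 0.433), the β chain of the α6β4 laminin receptor, on the EC side. On the FB side they were Smoc2 (-7.08 ± 0.355) and Fbln1 (-6.86 ± 0.243), both secreted matrix proteins. Of the 10 receptors tested, 6 were higher in ECs and 3 lower, and of 6 collagen IV chains 0 were higher and 2 lower.

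Partners of SMCs against FBs numbered 25, of which 16 were higher and 7 lower, while 24% and 19.6% of all genes were. Itga7, the α chain of the muscle laminin receptor (6.35 ± 0.371), and Npnt, nephronectin (6.11 ± 0.421), were highest, and Smoc2 (-7.09 ± 0.919) and Fbln1 (-4.58 ± 0.324) lowest. Collagen IV chains were mostly on the SMC side, with 4 of 5 higher and 1 lower. Against SMCs, ECs had 10 of 29 partners higher and 16 lower, while 21.7% and 21.1% of all genes were. The partners were led by Itgb4 (7.88 ± 0.375) and Hmcn1 (6.37 ± 1.41, adjusted p = 0.0235) upward and by Npnt (-6.24 ± 0.523) and Itga7 (-5.91 ± 0.361) downward. In mesothelial cells against FBs, 15 of 31 partners were higher and 9 lower, while 15.8% and 15.5% of all genes were. Bcam (5.91 ± 0.292), a receptor for Lama5, and Itga3 (5.75 ± 0.355) lay at one end and Col15a1 (-3.87 ± 0.644) and Ntn4 (-2.85 ± 0.245) at the other. In airway epithelial cells 10 of 27 partners were higher and 14 lower, while 25.8% and 19.2% of all genes were. Lamb3 (5.54 ± 0.452) and Itga3 (5.05 ± 0.417) lay furthest up and Smoc2 (-7.49 ± 0.412) and Fbln1 (-5.55 ± 0.289) furthest down.

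The make-up of α chain UMIs summed up these patterns within a cell type. Each UMI marks 1 captured molecule at its 3′ end, so shares do not scale with transcript length, though capture may differ between genes. In FBs, Lama2 made 61.2% ± 9.61 (SD, n = 6) of the UMIs of the 4 α chains and Lama4 38.4% ± 9.24. In SMCs, Lama4 made 46.4% ± 14.0 (SD, n = 4), Lama2 29.9% ± 8.93 and Lama5 20.7% ± 9.68. In ECs, Lama4 made 59.1% ± 17.8 (SD, n = 5), Lama5 32.7% ± 16.4 and Lama3 7.18% ± 3.25. Of β chain UMIs, Lamb2 made 56.2% ± 8.28 (SD, n = 5) in FBs, 99.7% ± 0.529 (SD, n = 4) in SMCs and 94.9% ± 5.72 (SD, n = 5) in ECs. The Lama3 share in ECs is limited by free RNA, which its level exceeded in old 3 and old 4 alone. Libraries differed widely in the α chain UMIs behind a share, from 13 to 6563 in FBs, 11 to 15572 in SMCs and 20 to 1006 in ECs. The means weight each library alike. In FBs, young 2 gave Lama2 69.2% with a 95% Wilson interval of 42.4% to 87.3%, for counting error only. Age could be tested in FBs alone, where 0 of 5 shares passed the test (two-sided exact permutation test, 4 against 2, p from 0.4 to 0.933, all adjusted p = 0.933, smallest p possible 0.133). Lama2 made 62.2% ± 9.18 (SD, n = 4) of old and 59.3% ± 14.1 (SD, n = 2) of young α chain UMIs.

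**Figure D3:**
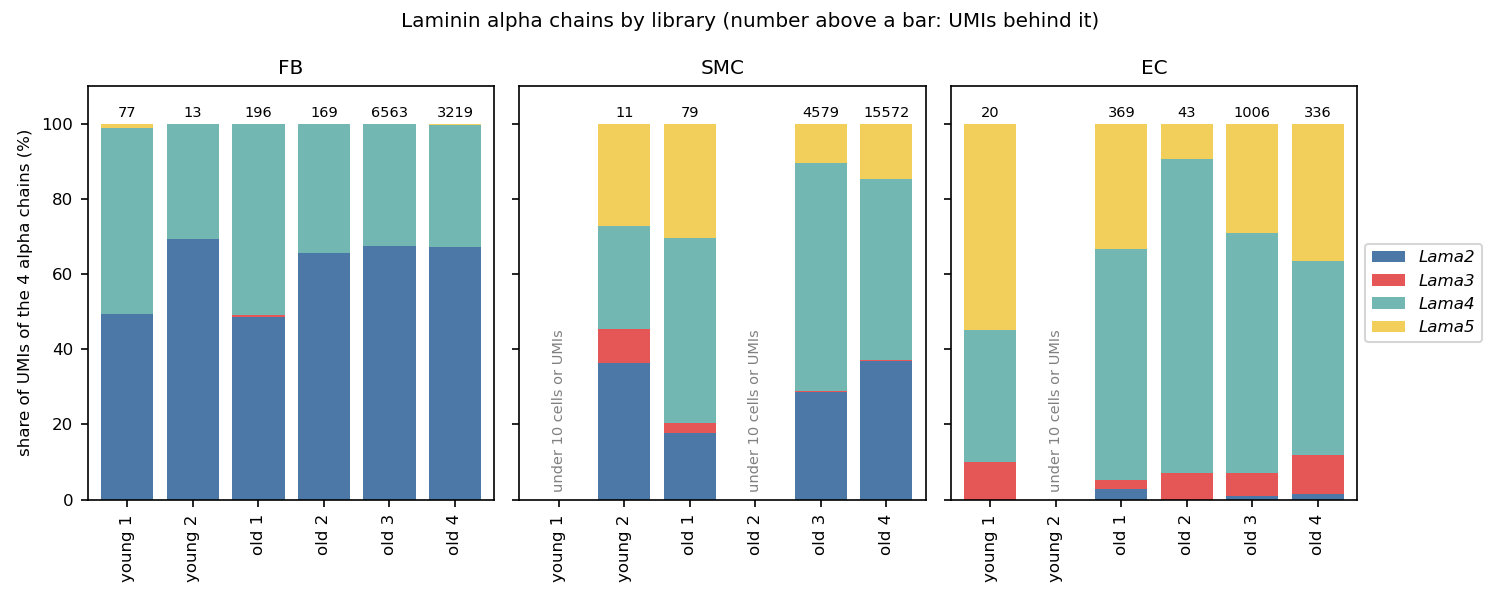
Share of each α chain among the UMIs of Lama2, Lama3, Lama4 and Lama5 per library (%), with the number of UMIs above each bar. Lama2 and Lama4 fill nearly all of each FB bar, SMC bars add Lama5, and EC bars hold almost no Lama2, with 9.3% (old 2) to 55.0% (young 1) Lama5.

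The question of the study was what changes with age. Old and young libraries were compared per cell type, and 0 members passed an adjusted p of 0.05 in FBs (7 tested), SMCs (6), ECs (6) or airway epithelial cells (3) by edgeR, and 0 by DESeq2. Of all genes tested, 0.0449% passed in FBs and 0% in each other type by edgeR. At an unadjusted p under 0.05 there was 1 member, Hspg2 in ECs, while 5.72% of all EC genes were under it, 6.51% of FB, 8.28% of SMC and 6.09% of airway genes. Such a p does not show that levels were alike. The 3 libraries with shared barcodes, of low UMIs per cell, include both young ones, and for SMCs, where old 2 is missing, low depth cannot be separated from young age. In FBs young cells had a mean of 880 and 722 UMIs, against 932 in old 2 and 2942 to 6454 in the other old libraries, and the part of depth in the age differences was not tested. The p-values of the age tests rest on the spread between libraries, of 1 mouse each. Of airway epithelial cells, 137 of 258 in young 1, 219 of 418 in young 2 and 202 of 530 in old 2 had shared barcodes. Whether the airway values of these libraries are independent of each other was not tested, which limits the airway comparison.

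Perlecan in ECs and FBs and nidogen 1 in FBs had lower levels in every old library than in either young one, without passing the test. Hspg2 in ECs was 746 CPM ± 23.7 (SD, n = 2) in young and 392 CPM ± 97.9 (SD, n = 4) in old libraries, with every old library (298 to 503 CPM) below both young ones (730 and 763 CPM). The log2 fold change was -0.94 ± 0.435 (SE, adjusted p = 0.864), and -0.63 ± 0.479 within cluster 14. Summed over libraries the ratio of old to young was 0.579, with a 95% counting interval of 0.461 to 0.736. This and the other counting intervals hold counting error only and leave out the spread between mice, so they do not test age. In FBs every old library (127 to 210 CPM) was again below both young ones (239 and 240 CPM), with a log2 fold change of -0.40 ± 0.466 (adjusted p = 0.928). The FB ratio of summed counts was 0.831, with a 95% counting interval of 0.556 to 1.30 that includes 1. In SMCs the old CPM values (281 to 307) were also below the young (312 and 333), but the fitted log2 fold change was 0.26 ± 0.595 with TMM scaling and -0.16 without it, so no direction can be given. TMM moved the median over all SMC genes from 0.10 to 0.50 on the log2 scale. Within cluster 19, Hspg2 was higher in old SMCs, at 348 and 381 CPM in 2 libraries against 257 and 311 CPM.

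Nid1 in FBs was 1456 CPM ± 100 (SD, n = 2) in young and 866 CPM ± 117 (SD, n = 4) in old libraries, which did not overlap. The log2 fold change was -0.66 ± 0.413 (adjusted p = 0.807), and -1.02 ± 0.485 within cluster 11 (adjusted p = 0.997), where old libraries ran from 379 to 859 CPM and young ones were at 1386 and 1556 CPM. Both members lay on the same side of 0 in all 20 alternatives, Nid1 in FBs from -1.10 to -0.29 and Hspg2 in ECs from -1.20 to -0.55. In FBs, 2 of 7 members, these 2, had every old library below both young ones, a pattern that 7.36% of all FB genes showed, and 0 had every old library above, which 17% showed.

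The α chains of endothelial laminins differed in opposite directions, with neither passing the test. Lama4 in ECs was 119 and 68.4 CPM in young and 137, 250, 230 and 158 CPM in old 1 to old 4, so each old library was above both young ones. EC Lama4 was close to free RNA in old 1 (137 against 122 CPM) and young 2 (68.4 against 57.5 CPM). Its log2 fold change was 1.00 ± 0.553 (adjusted p = 0.903), and the ratio of summed counts was 1.95 (95% counting interval 1.06 to 4.08) from 10 young UMIs. Lama5 in ECs was 187 and 114 CPM in young and 74.4, 27.8, 105 and 112 CPM in old libraries, each below both young ones, with a log2 fold change of -0.90 ± 0.557 (adjusted p = 0.909). Its ratio of summed counts was 0.615 from 16 young UMIs, with a 95% counting interval of 0.375 to 1.08 that includes 1. The separation was narrow, with old 4 at 112 CPM and young 2, on 5 UMIs, at 114 CPM. Within cluster 14 Lama5 kept this separation (31.3 to 100 CPM against 123 and 196 CPM), while Lama4 overlapped (32.9 to 212 CPM against 71.4 and 73.6 CPM). Lamc1 in ECs was 50.9 and 22.8 CPM in young and 56.3 to 87.6 CPM in old libraries (log2 fold change 0.97 ± 0.639), on 4 young UMIs in all. In ECs 2 of 6 members were thus wholly above, against 12.1% of all genes, and 2 wholly below, against 7.94%. Of these, Lamc1 passed the filter of 5% of cells only through old 1, old 3 and old 4 (12.2%, 22.7% and 24.2%). It was counted in 3.53% and 1.61% of ECs of young 1 and young 2 and in 4.90% of those of old 2. Its place among the 6 thus rested on the group where it was higher, so its separation gives no support.

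In SMCs Lama4 had the largest fitted age difference of any member. It was at 89.1 and 125 CPM in young libraries and at 81.2, 450 and 335 CPM in old 1, old 3 and old 4. The library of 20 months lay below both young ones, and those of 28 and 27 months lay above. Free RNA held Lama4 at 79.2 and 57.5 CPM in young 1 and young 2 and at 122, 86.1 and 63.2 CPM in old 1, old 3 and old 4. The SMC level of old 1 was thus below free RNA, and that of young 1 was little above it. The log2 fold change was 1.74 ± 0.828 (adjusted p = 0.588) and 1.15 ± 0.702 within cluster 19. It passed without old 1 (2.24, adjusted p = 0.000995), a fit in which 239 of 3914 genes passed, and was 0.14 without old 3 and old 4. Only 5 young UMIs support it, and the ratio of summed counts, 3.30, had a 95% counting interval of 1.41 to 10.2. That interval is for counting error only, and old 4 gave 22463989 of the 29140194 SMC UMIs of the old libraries. No member was wholly above the young SMC libraries, against 22.6% of all genes, and 2 of 6, Hspg2 and Lamc1, were wholly below, against 11.8%. Lamc1 had a fitted log2 fold change of 0.04 ± 0.681 that turned negative without TMM scaling.

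**Figure D4:**
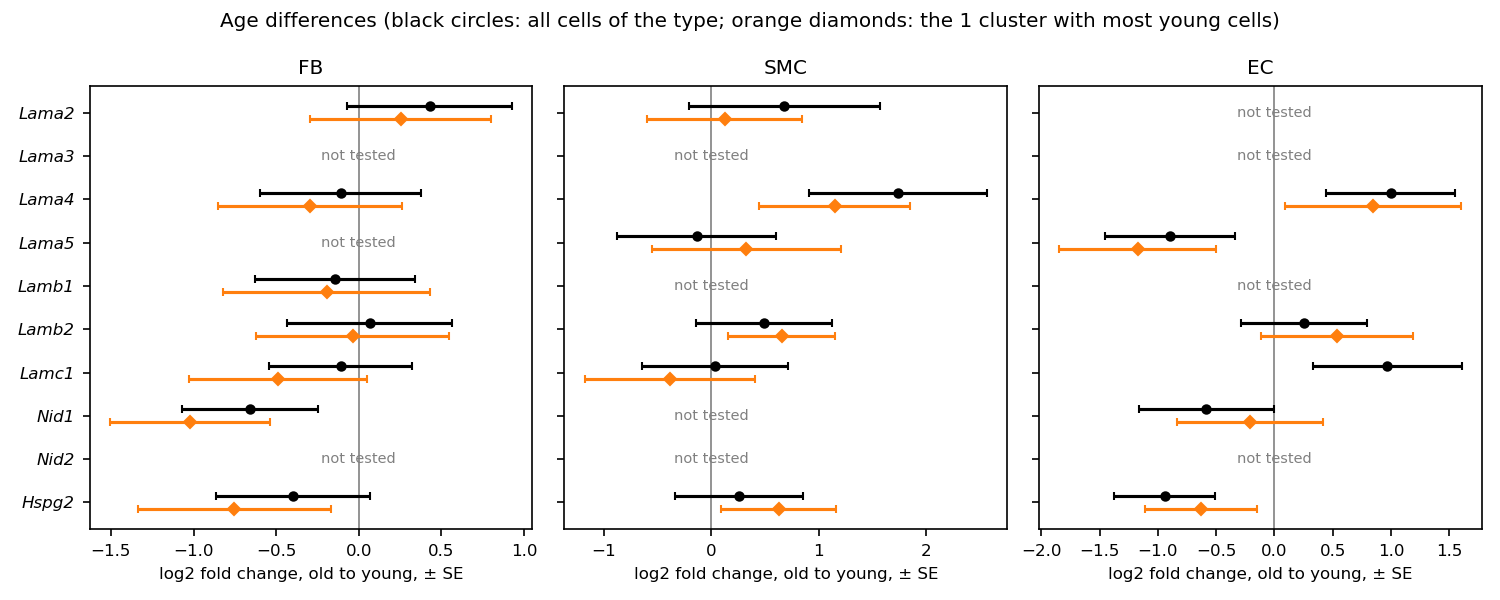
Log2 fold change of old to young libraries with its SE for each member tested in FBs, SMCs and ECs, over all cells of the type (black circles) and in the 1 cluster that holds most young cells (orange diamonds). Nid1 and Hspg2 lie below 0 in FBs, Lama4 lies above 0 in SMCs and ECs, and no value passed an adjusted p of 0.05.

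For the other members tested, old and young libraries overlapped. Lama2 in FBs had a log2 fold change of 0.43 ± 0.498, Lamb1 of -0.14 ± 0.485, Lamb2 of 0.07 ± 0.499, Lamc1 of -0.11 ± 0.433 and Lama4 of -0.11 ± 0.486. Lama2, Lamb2 and Lama5 in SMCs were at 0.68 ± 0.888, 0.49 ± 0.632 and -0.13 ± 0.740, and Lamb2 and Nid1 in ECs at 0.26 ± 0.542 and -0.59 ± 0.577. In airway epithelial cells the values were -0.61 ± 0.331 for Lamc1, 0.04 ± 0.341 for Lama5 and -0.10 ± 0.651 for Lamb2, and 0 of 3 members were wholly below (6.6% of all genes) or above (9.35%). Airway Lamc1 was at 46.1 and 41.5 CPM in young and 22.7, 26.4, 34.7 and 43.1 CPM in old libraries. Its log2 fold change did not pass (edgeR, adjusted p = 0.77) and was below 0 in all 18 alternatives. The member medians were -0.11 in FBs, 0.37 in SMCs, -0.16 in ECs and -0.10 in airway cells, against 0.23, 0.50, 0.13 and 0.02 over all genes. Lamb1 in ECs was at 0 in young and at 1.8 to 15.4 CPM in old libraries, all under the 29.2 CPM that the young counts allow, so no fold is given. Of the partner genes 0 passed in any age comparison (18 to 24 tested per type).

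Whether the old to young difference of a gene differed between 2 cell types was tested as an interaction within libraries. No member passed in ECs against FBs, SMCs against FBs or ECs against SMCs by edgeR or DESeq2, as 0.04%, 0% and 0% of all genes did by edgeR, and 0 partners passed. At an unadjusted p under 0.05 there was 1 member, against 5.5%, 6.45% and 5.56% of all genes. This was Lama4, whose old to young difference was 1.15 ± 0.534 larger on the log2 scale in ECs than in FBs (adjusted p = 0.891). The corresponding values were 1.83 ± 0.915 for Lama4 in SMCs against FBs, 1.23 ± 0.643 for Lamc1 in ECs against FBs and -0.93 ± 0.459 for Hspg2 in ECs against SMCs, with adjusted p of 0.773, 0.892 and 0.807. Lamb1 in SMCs against FBs was at -4.21 ± 2.35, resting on 1 young UMI.

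Laminins of ECs can signal to SMCs through their receptors. The study lists Lama3 with Sdc2 and Lama4 with Itgav among the EC to SMC pairs whose signaling increased with age. It multiplied imputed expression of ligand and receptor in pairs of cells and compared them with a Wilcoxon rank sum test. Here the product of mean log counts per 10000, ligand in ECs times receptor in SMCs, was computed per library without imputation. Its measure and its unit of testing thus differ from those of the study. For Lama4 and Itgav it was 0.104 and 0.0507 in young libraries and 0.0926, 0.343 and 0.363 in old 1, old 3 and old 4. For Lama3 and Sdc2 it was 0.0283 and 0.0109 in young and 0.0130, 0.110 and 0.162 in old. In both, old 1 fell among the young values and the deepest libraries, old 3 and old 4, stood above. The differences of 0.189 and 0.0753 gave p = 0.4 each (two-sided exact permutation test, 3 against 2, smallest p possible 0.2). With each cell thinned to 500 UMIs they were -0.00547 and 0.0153. Young SMCs held 3 to 6 UMIs of each receptor per library, and young ECs 1 to 7 of each ligand.

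The genes with the most similar levels to each member were found among 10204 genes over the 46 sums of at least 10 cells, in 9 cell types, as Pearson's r of log2(CPM + 1). The sums share libraries and depth, so r is a description. The closest was Ltbp3 to Lamb2 (r = 0.944), followed by Fhl1 (0.932). Hspg2 lay nearest Tgfb1i1 (0.901) and Ecm2 (0.901), and Lamb1 nearest Lrrn4cl (0.897) and Pcsk6 (0.849). Lama5 was nearest Tinagl1 (0.874) and Itga3 (0.871), a vessel matrix protein and a laminin receptor chain. Lama4 was nearest Rhoj (0.868) and Grb10 (0.867), Lamc1 nearest Ctdsp2 (0.848) and Scd2 (0.835), and Lama2 nearest Col6a2 (0.842) and Aspn (0.839), both genes of fibroblast matrix. Nid1 was nearest Tmem100 (0.83) and Mtch1 (0.779), Nid2 nearest Tmem119 (0.823) and Lrp3 (0.776), and the sparse Lama3 nearest Pcdh17 (0.701) and Epha2 (0.672). Among the members themselves Lamb2 and Hspg2 were closest, at 0.853.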

How the data were processed

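The authors trimmed reads with Cutadapt, aligned and counted them with STARsolo on GRCm38.p6 (versions not given in the sources used here), and deposited raw UMI counts per gene and barcode. No normalization was applied by the authors to these deposited counts. The members and gene lists were chosen with earlier results of these data known. Doublets were marked per library with Scrublet and removed, and in 3 libraries where it marked under 0.5% the barcodes with the top scores were taken. Cells were clustered without batch correction in scanpy 1.11.5 (2000 variable genes, 40 components, 15 neighbours, Leiden resolution 1.0). Clusters were named from fixed markers, with naming limits set after the clusters were seen.

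Counts were summed per library and type (at least 10 cells). Tested genes had counts in more than 5% of cells of 3 or more libraries, with edgeR 4.0.16 (TMM, robust quasi-likelihood F test, Benjamini-Hochberg). The SE of an edgeR log2 fold change is its size divided by the square root of the F value, so it is approximate. Cell type pairs and interactions had the library as a block, since both sums come from the same mouse. Single values were compared with exact permutation tests (SciPy 1.17.1). The edgeR fits were tested on simulated data. Alternatives included DESeq2 1.42.0 and leaving out each library. Named were all members, partners past the threshold in age or interaction tests, the 2 furthest partners per direction in each cell type pair, and the 2 most similar genes per member. The versions of gene identifiers differed from the annotation at hand, so genes were matched by symbol.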

Additional observations from a re-analysis of the deposited data

How the results depend on the processing

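Between cell types, the number of members called was within 1.5 times that reported in 94 of 94 alternative counts. By age and for interactions the reported number was 0, and it stayed 0 in 75 of 76 and 52 of 52 alternative counts. Since almost no gene of any kind passed in the reported fits by age and for interactions, this does not show that they are stable. The exception was SMCs by age, with 0 to 1 calls when 1 library was left out (Lama4, without old 1, where 239 of 3914 genes passed against 0 of 6810 with all libraries). Of 756 alternative values between cell types 0 reversed, 19 lost and 9 gained a call. Without the library as a block (no replicate block), members called were 7 of 8 for ECs against FBs, 5 of 8 for SMCs against FBs, 3 of 7 for ECs against SMCs, 10 of 10 for mesothelial cells and 8 of 8 for airway cells. Old and young libraries could not be paired, because they come from different mice and the labels link none of them.

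Of 408 alternative log2 fold changes by age, 42 reversed, all of members that did not pass, and the cause was not tested. Clustering with members gave FB Lamb2 -0.00859 and SMC Lamc1 -0.00385. No gene filter gave FB Lamc1 0.22, Lama4 0.23 and Lamb1 0.20 and SMC Lama5 0.60. No TMM gave SMC Lamc1 -0.35 and Hspg2 -0.16 and airway Lamb2 0.16. DESeq2 gave SMC Lamc1 -0.0904. Thinning gave SMC Lamc1 -0.87 and Hspg2 -0.27, Lamb1 2.51 (interaction, SMC minus FB) and -0.00547 for the Lama4 and Itgav product. A covariate for the libraries that share barcodes gave FB Lamc1 0.0246 and Lamb2 -0.36, EC Lamb2 -0.94 and Nid1 0.23 and airway Lama5 -0.25. Chosen after seeing the data were leaving out shared barcodes (FB Lamb2 -0.000695, airway Lama5 -0.14, Lamb1 interaction 4.47), the 1 cluster of most young cells (FB Lamb2 -0.0373, SMC Lamc1 -0.38, Lama5 0.33) and leaving out old 3 and old 4 (FB Lamb2 -0.38, Lama2 -0.0149, SMC Lamc1 -0.28, Lama2 -1.58, EC Lamb2 -0.0344, airway Lama5 -0.0107).

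Leaving out each library gave ranges that crossed 0 for FB Lama4 (-0.68 to 1.15), Lamb1 (-0.50 to 0.58), Lamb2 (-0.11 to 0.26) and Lamc1 (-0.22 to 0.0333), SMC Lama5 (-0.37 to 0.22), Lamb2 (-0.0719 to 1.51) and Lamc1 (-0.0143 to 0.24), EC Nid1 (-1.09 to 0.29), and airway Lama5 (-0.0666 to 0.22) and Lamb2 (-0.74 to 0.22). It did so for the SMC minus FB interactions of Lama4 (-0.00806 to 2.49) and Lamb1 (-6.34 to 5.13). A minimum of 1000 UMIs could not be fitted for SMCs and ECs by age or for interactions, nor the covariate for SMCs. Young UMIs were few for most members in SMCs and ECs, which limits their age values.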
